A study of Rattus norvegicus with 16 samples.

Results

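The kinase genes described here are the salt-inducible kinases Sik1, Sik2 and Sik3, the polo-like kinases Plk2 and Plk3, the Tribbles pseudokinases Trib1, Trib2 and Trib3, and the Pim kinases Pim1 and Pim3, in the gustatory cortex of rats. All 10 were picked by name with their 1 h and 3 h values known, so the difference between these times is given as a description. Adjusted p-values of that difference are used only to count genes beside the share of all genes, and they test nothing about these 10. Of the 10 genes, 9 were measured, each by 1 probe set (a group of array probes for 1 gene), among 15209 probe sets paired with a single gene and 28826 probe sets in all. For Sik3, no probe set was paired with the symbol or with its gene identifier, and it has no value here.

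The animals were male Wistar Hola rats, 2 months old per the labels, while the paper's methods give an older range in weeks for all its experiments. The rats were kept on restricted water for 3 days. They then drank either 0.1% saccharin, a taste new to them, or water, which they knew, and the gustatory cortex, the taste area of the insular cortex, was taken 1 h or 3 h after drinking ended. The groups were saccharin 1 h, saccharin 3 h, water 1 h and water 3 h, each with 4 rats and 1 array per rat, which makes 16 arrays. All groups had been water restricted and had drunk, and no array here comes from a rat that did not drink, so a higher value at 1 h cannot be told apart from a lower value at 3 h. The arrays numbered C365 to C372 are those of 3 h and C373 to C380 those of 1 h, so the numbering and the time cannot be told apart.

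These genes code for regulators that sit at the end of stimulus-driven signalling. The salt-inducible kinases belong to the AMPK family and are activated by LKB1. They phosphorylate CRTC coactivators and class IIa histone deacetylases and so hold them in the cytoplasm, and Sik1 is itself a target of cAMP and CREB, which makes it part of a feedback loop. Plk2 and Plk3 are polo-like kinases whose transcripts are induced by activity in neurons, and Plk2 takes part in weakening synapses after prolonged excitation. The Tribbles proteins have a kinase fold with little or no catalytic activity and act as scaffolds that bring substrates to the COP1 ubiquitin ligase. Pim kinases are active as soon as they are made, so that transcription sets much of their output, and cytokines acting through STAT factors are known to induce them.

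The start regions of 9 of the 10 genes were matched by symbol in the RefSeq promoter windows of the rat build GRCr8. Trib1 had no window and was not searched, while Sik3, which has no expression value here, was. Each window ran from 250 bases before the transcript start to 50 after it. The cAMP response element (CRE, TGACGTCA), to which CREB binds, was searched in full and as its core TGACG (called the CRE core here), on both strands, the full element holding a core on each strand. The stretches below are shown because they hold these letters in 3 genes that were higher at 1 h, Sik1, Plk2 and Plk3, and, for contrast, in Trib3, whose level hardly differed. Capitals mark a full element or a core, CGTCA being the CRE core read on the other strand.
Sik1 (chr20:9958787-9958846, minus strand): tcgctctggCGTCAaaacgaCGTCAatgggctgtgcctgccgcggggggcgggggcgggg
Plk2 (chr2:43702436-43702495, plus strand): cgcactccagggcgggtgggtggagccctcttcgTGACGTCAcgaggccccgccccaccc
Plk3 (chr5:135848941-135849040, minus strand): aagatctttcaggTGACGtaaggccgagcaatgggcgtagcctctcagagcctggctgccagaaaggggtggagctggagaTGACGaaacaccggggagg
Trib3 (chr3:161275534-161275593, minus strand): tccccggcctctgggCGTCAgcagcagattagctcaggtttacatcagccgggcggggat

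The full element was found only in the Plk2 window among the 9, at bases -66 to -59 from the start, while 1.829% of all 33469 windows hold it. The CRE core was found in 6 of the 9 windows (Sik1, Sik2, Sik3, Plk2, Plk3 and Trib3), against 21.205% of all windows and 26.175% of the 12531 windows of tested genes. In Sik1 the CRE cores begin at bases -191 and -180, and in Plk3 at -127 and -59. The CRE core occurred both in members that stood far apart between the times and in Trib3, which did not. The windows of Trib2, Pim1 and Pim3 held no CRE core, and Trib1, with the largest difference, had no window. Whether the element has a part in the differences was not tested. The GC box GGGCGG was found in 6 of the 9 windows, against 33.063% of all windows and 50.084% of those of tested genes. The AP-1 element TGACTCA and the CArG box, the letters bound by serum response factor, were in none of the 9 windows, and they occur in 4.631% and 1.637% of all windows. A match of letters is a description and not a measured site.

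The arrays were alike overall. Their medians were between 5.08 and 5.16 on the log2 scale, the correlation of any 2 arrays was between 0.994 and 0.997, and no 2 arrays were identical. The reference genes Gapdh and Actb differed between 1 h and 3 h by -0.03 and 0.03 after saccharin on the log2 scale. The mean level of 6 neuronal markers was between 10.24 and 10.28 in the 4 groups, so the tissue carried the transcripts of neurons throughout. A mean level of 12 markers of the leptomeninges and fibroblasts, the cells of the membranes over the cortex, was higher at 1 h, with group means of 6.59 and 6.24 after saccharin and 6.55 and 6.35 after water. In these samples of whole tissue, fewer cells of a type and less RNA per cell cannot be told apart.

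**Figure D1:**
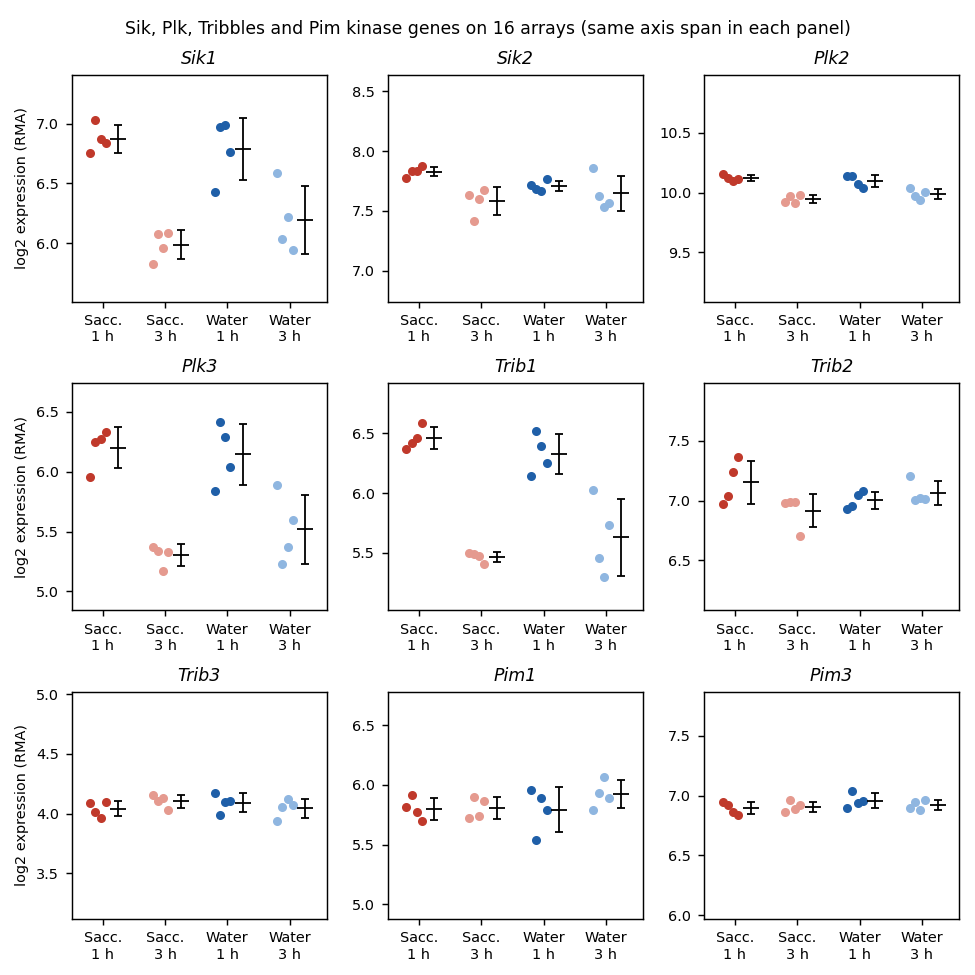
Expression of the 9 measured kinase genes. The vertical axis is log2 expression (RMA) and spans the same range in each panel, points are single arrays (1 rat each) in the 4 groups, and the black mark with bar is the mean with SD, n = 4. The means of Sik1, Plk3 and Trib1 stand higher at 1 h than at 3 h in both tastes, with overlap of single arrays after water for Sik1 and Plk3. The groups of Trib3, Pim1 and Pim3 overlap in both tastes.

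Of the 9 genes, Sik1, Plk3 and Trib1 had the largest differences, with higher means at 1 h than at 3 h after drinking in both tastes. After water, single arrays of Sik1 and Plk3 overlapped between the times. Plk2 was higher by less in both tastes, Sik2 and Trib2 had a modest difference after saccharin, and the groups of Trib3, Pim1 and Pim3 overlapped throughout. After saccharin the 3 genes were 1.85-fold to 1.99-fold higher at 1 h, and after water 1.51-fold to 1.62-fold. These are 1 gene of each of 3 families, and the measured relatives of each had smaller differences. The plot of single arrays shows this pattern.

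Trib1, whose protein brings C/EBP transcription factors to COP1 for degradation, had the largest difference among the 9 genes. Its log2 expression in the saccharin 1 h arrays was 6.37, 6.42, 6.46 and 6.58, and in the saccharin 3 h arrays 5.50, 5.49, 5.47 and 5.41. The groups were 0.87 apart at their nearest arrays, and the saccharin 3 h arrays lay closer together than those of any other group. After water the 1 h arrays read 6.15, 6.52, 6.39 and 6.25 and the 3 h arrays 6.03, 5.46, 5.30 and 5.74. All 1 h arrays were again above all 3 h arrays, here with a gap of 0.12. The log2 difference was 0.99 (SE 0.115) after saccharin and 0.70 (SE 0.115) after water, with 4 arrays per group.

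Plk3, a polo-like kinase of the stress response and the cell cycle, followed Trib1 closely. Its saccharin 1 h arrays read 5.95, 6.25, 6.27 and 6.33 and its saccharin 3 h arrays 5.37, 5.34, 5.17 and 5.33. These groups did not overlap, with 0.58 between the nearest arrays. After water the 1 h arrays read 5.84, 6.41, 6.29 and 6.04 and the 3 h arrays 5.89, 5.22, 5.37 and 5.59. Here 15 of the 16 pairs of arrays were higher at 1 h, the exception being the lowest 1 h array, C373, against the highest 3 h array, C365. The log2 difference was 0.90 (SE 0.131) after saccharin and 0.63 (SE 0.131) after water.

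Sik1, the member of its family that cAMP signals induce, had the same order of groups. Its saccharin 1 h arrays read 6.75, 7.03, 6.87 and 6.84 and its saccharin 3 h arrays 5.83, 6.08, 5.96 and 6.08, with a gap of 0.67. In the water groups the values were 6.43, 6.97, 6.99 and 6.77 at 1 h and 6.59, 6.04, 6.22 and 5.94 at 3 h. Again the only pair of the 16 that went the other way was C373 against C365. The log2 difference was 0.89 (SE 0.128) after saccharin and 0.59 (SE 0.128) after water.

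Plk2, which phosphorylates the spine protein SPAR (coded by Sipa1l1), had a small difference that was even across arrays. It read 10.16, 10.12, 10.10 and 10.11 at 1 h and 9.92, 9.97, 9.91 and 9.98 at 3 h after saccharin, all 1 h arrays being higher by at least 0.12. The water arrays read 10.13, 10.14, 10.07 and 10.04 at 1 h and 10.03, 9.97, 9.94 and 10.00 at 3 h, where the nearest arrays of the times were 0.0035 apart. The log2 difference was 0.18 (SE 0.042) after saccharin, a fold of 1.13, and 0.11 (SE 0.042) after water, a fold of 1.08. The SD within groups was 0.026 to 0.049, in each group below that of Sik1, Plk3 and Trib1 in the same group. After saccharin the small difference stood clear of the spread, while after water the groups nearly touched.

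Sik2, a relative of Sik1 that also restrains CRTC coactivators, did not overlap between the times after saccharin and overlapped after water. It read 7.77, 7.83, 7.83 and 7.87 at 1 h and 7.63, 7.41, 7.60 and 7.68 at 3 h after saccharin, without overlap, and the log2 difference was 0.25 (SE 0.068). After water it read 7.72, 7.68, 7.66 and 7.76 at 1 h and 7.86, 7.63, 7.53 and 7.57 at 3 h. The array C365 was above every water 1 h array, and the log2 difference was 0.06 (SE 0.068), or 0.13 (SE 0.059) without C365.

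Trib2, a close relative of Trib1, overlapped between the times in both tastes. Its saccharin arrays read 6.97, 7.04, 7.24 and 7.36 at 1 h and 6.98, 6.99, 6.99 and 6.71 at 3 h. Its water arrays read 6.93, 6.96, 7.04 and 7.08 at 1 h and 7.21, 7.01, 7.02 and 7.01 at 3 h. The log2 difference was 0.24 (SE 0.083) after saccharin and -0.06 (SE 0.083) after water, and 1 array at 3 h in each taste stood apart from the other 3.

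The remaining 3 genes had log2 differences between the times of 0.13 or less in size. Trib3, which in other tissues rises in the stress response of the endoplasmic reticulum, ranged from 3.93 to 4.18 over all arrays and differed by -0.06 after saccharin and 0.05 after water. Its level lies in the lower part of the arrays' range, where small changes are hard to see. Pim1 ranged from 5.54 to 6.07 and differed by -0.01 after saccharin and -0.13 after water. Pim3 ranged from 6.84 to 7.04 and differed by -0.01 and 0.04. The arrays of the times overlapped for all 3 genes in both tastes.

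**Figure D2:**
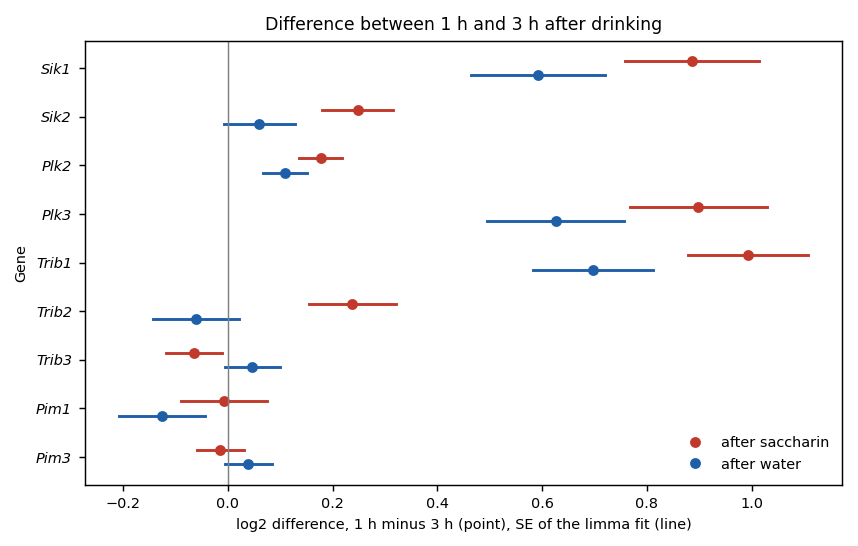
Difference between 1 h and 3 h after drinking for the 9 kinase genes. The horizontal axis is the log2 difference, 1 h minus 3 h, points are the estimates of the limma fit over 16 arrays, lines are 1 SE to each side, and colours are the 2 tastes. Trib1 (0.99 and 0.70), Plk3 (0.90 and 0.63) and Sik1 (0.89 and 0.59) lie far to the right in both tastes, while the other points lie between -0.13 and 0.25.

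Read against all tested probe sets, an adjusted p under 0.05 with a higher level at 1 h was met by 0.276% after saccharin, by 0.0986% after water and by 0.723% when the tastes were averaged (limma, Benjamini-Hochberg over 15209 probe sets). Among the 9 genes this was met by 3 (Sik1, Plk3 and Trib1) after saccharin, by Trib1 after water, and by 4 (these 3 and Plk2) in the average. After water, leaving out C365 or C373 makes it 3 genes, and leaving out C367, C374 or C376 makes it 0. All 1 h arrays lay above all 3 h arrays for 5 of the 9 genes after saccharin (Sik1, Sik2, Plk2, Plk3 and Trib1) and for 2 after water (Plk2 and Trib1), while 2.69% and 1.93% of all probe sets did so. The genes were selected on this contrast, so nothing further is read from these counts. The median log2 difference over the 9 genes was 0.24 after saccharin and 0.06 after water, beside 0.0023 and -0.0023 over all probe sets.

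The leptomeningeal markers moved with the same comparison. All 12 had a positive difference in both tastes, with a median of 0.34 (0.21 to 0.56) after saccharin and 0.20 (0.06 to 0.39) after water, and none of them passed the adjusted threshold (limma), with 10 and 3 at an unadjusted p under 0.05. Per array, the mean level of the list spanned 6.45 to 6.70 and 5.93 to 6.54 at 1 h and 3 h after saccharin, and 6.40 to 6.73 and 6.14 to 6.55 after water. With the mean level of this list as a covariate, the log2 difference after saccharin was 0.92 (SE 0.166) for Sik1, 0.89 (SE 0.171) for Plk3 and 0.99 (SE 0.150) for Trib1. These are as large as without it. After water it was 0.61 (SE 0.144), 0.62 (SE 0.148) and 0.70 (SE 0.130), also as large. For Sik2 after saccharin it was 0.36 (SE 0.076) in place of 0.25, and for Plk2 it was 0.21 (SE 0.053) in place of 0.18. For Trib2 after saccharin it was smaller, 0.14 (SE 0.101) in place of 0.24. With the tastes averaged, Plk2 no longer passed the threshold with the covariate (limma adjusted p = 0.117). Markers of astrocytes, oligodendrocytes, microglia, endothelium and neurons had median log2 differences between -0.11 and 0.02 over both tastes. At an unadjusted p under 0.05 (limma), 2 of 5 microglial and 2 of 5 endothelial markers were lower at 1 h after saccharin, and 0 after water. Of the striatal markers, 4 were measured, and their median was -0.09 (-0.37 to 0.09) after saccharin and -0.14 (-0.24 to -0.01) after water. In each taste 1 of these 4 was lower at 1 h at an unadjusted p under 0.05. Of all probe sets, 3.43% were so after saccharin and 3.56% after water. The mean of the leptomeningeal list itself differed between the times, so the fit with it cannot separate the list from time. The part of any of these cells in the differences of the kinase genes was not tested.

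The comparison of saccharin with water asks whether the level of these kinases differed between the tastes, all rats having drunk. Saccharin was always the new taste and water the known one. A new taste and saccharin itself therefore cannot be told apart here. The genes were not chosen on this comparison. But they were chosen with 1 h and 3 h values of these same arrays known, so its estimates are not free of that choice. None of the 9 genes passed the threshold at 1 h, at 3 h or with the times averaged, and none of the 15209 probe sets did (0% in each of the 3 comparisons, limma with Benjamini-Hochberg adjustment). At an unadjusted p under 0.05, the fit gave 465 probe sets at 1 h, 513 at 3 h and 515 in the average, and 0 of the 9 genes in each.

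At 1 h, Sik1 was 0.09 higher after saccharin on the log2 scale (95% interval -0.18 to 0.36), Plk3 0.06 higher (-0.22 to 0.33) and Trib1 0.13 higher (-0.11 to 0.37). The groups of the 2 tastes overlapped for each of these 3 genes. Without C373, the lowest water 1 h array, the estimates were -0.03 for Sik1, -0.05 for Plk3 and 0.07 for Trib1. Sik2 was 0.12 higher (-0.02 to 0.26, limma adjusted p = 1.00), and its 4 saccharin arrays were all above its 4 water arrays, the nearest being 7.77 and 7.76. Among all probe sets, 1.5% had groups that did not overlap in this comparison. Trib2 was 0.15 higher (-0.02 to 0.33, limma adjusted p = 1.00), with overlap.

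At 3 h the estimates for Sik1, Plk3 and Trib1 were on the other side. The log2 difference, saccharin minus water, was -0.21 for Sik1 (95% interval -0.48 to 0.06), Plk3 had an estimate of -0.22 (-0.49 to 0.06) and Trib1 one of -0.16 (-0.41 to 0.08), and the groups overlapped. The water 3 h arrays spread more widely than the saccharin 3 h arrays, with SDs of 0.28 against 0.12 for Sik1, 0.29 against 0.090 for Plk3 and 0.32 against 0.040 for Trib1. The highest of them was C365 in each case, and without it the estimates were -0.08 for Sik1, -0.09 for Plk3 and -0.03 for Trib1. For Trib2 all 4 saccharin arrays were below the 4 water arrays, with an estimate of -0.15 (-0.32 to 0.03, limma adjusted p = 0.999), where 1.91% of all probe sets had groups that did not overlap. Without C372, the lowest saccharin 3 h array, the Trib2 estimate was -0.08, and without C365 it was -0.10.

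Plk2, Trib3, Pim1 and Pim3 had differences between the tastes of -0.11 to 0.06 at both times, and their 95% intervals lay between -0.29 and 0.18. With 4 rats per group, the intervals for Sik1, Plk3 and Trib1 leave room for a difference of up to 0.37 at 1 h and of up to -0.49 at 3 h.

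**Figure D3:**
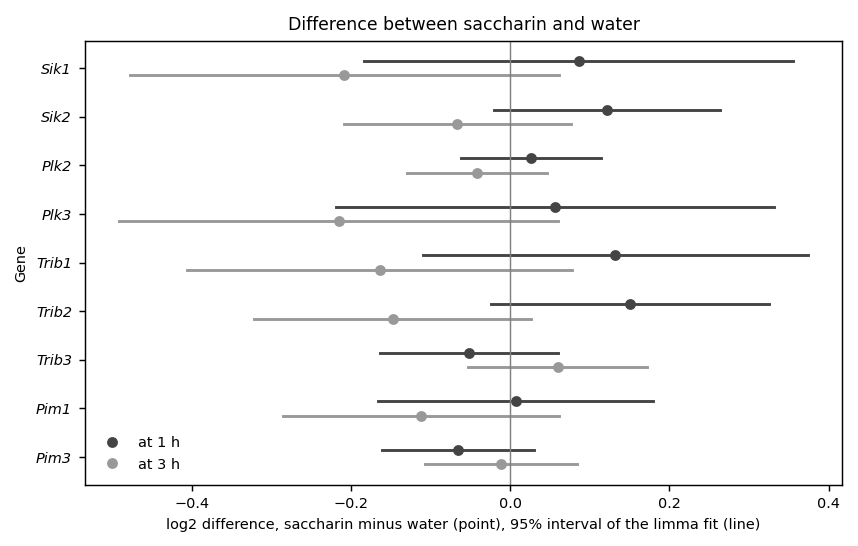
Difference between saccharin and water for the 9 kinase genes. The horizontal axis is the log2 difference, saccharin minus water, points are the estimates of the limma fit over 16 arrays, lines are 95% intervals, and shades are the 2 times. All intervals include 0, and 7 of the 9 estimates at 1 h are above 0 and 8 of the 9 at 3 h below it. The genes were chosen with 1 h and 3 h values of these arrays known, so these signs are a description only.

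Whether the difference between the times depended on taste was tested as an interaction. No gene among the 9 and no probe set among all passed the threshold (0%, limma with Benjamini-Hochberg adjustment, 450 probe sets at an unadjusted p under 0.05). The difference between 1 h and 3 h was larger after saccharin by 0.30 for Trib1 (95% interval -0.05 to 0.64), by 0.29 for Sik1 (-0.09 to 0.68) and by 0.27 for Plk3 (-0.12 to 0.66). For Trib2 the estimate was 0.30 (0.05 to 0.54, limma adjusted p = 1.00), the only one of the 9 whose interval leaves out 0 over all 16 arrays. For Sik2 it was 0.19 (-0.01 to 0.39). With the leptomeningeal mean as a covariate, Sik2 was at 0.23 (SE 0.087, limma unadjusted p = 0.016, adjusted p = 1.00). Without C372 the Trib2 interval took in 0, at 0.23 (-0.002 to 0.46), while that of Sik2 left it out, at 0.22 (0.01 to 0.43). Over all 16 arrays, estimates were above 0 for 7 of the 9 genes. The interaction is built from the time differences known when the genes were chosen, so this count is a description only. The 9 genes share the same 16 arrays, so they do not count as separate evidence, and the single array C365, the highest of the water 3 h arrays for 6 of them (Sik1, Sik2, Plk2, Plk3, Trib1 and Trib2), enters each of these 6 estimates. Without C365 the interaction was 0.16 for Trib1 (95% interval -0.11 to 0.43), 0.16 for Sik1 (-0.17 to 0.49), 0.15 for Plk3 (-0.20 to 0.50), 0.12 for Sik2 and 0.25 for Trib2.

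Sik1, Plk3 and Trib1 also resembled each other array by array. Likeness was measured as the root mean square of the difference between 2 profiles over the 16 arrays, each centred on its own mean, so that a smaller value is a closer match. The nearest of all probe sets to Trib1 was Plk3 at 0.11, and the same value makes Trib1 the nearest to Plk3. Nearest to Sik1 was Per1, a clock gene that stimuli also induce, at 0.13, followed by Plk3 at 0.14 and Trib1 at 0.18. Per1 was the second nearest to Trib1 (0.15) and the third to Plk3 (0.15), and Dusp6, a phosphatase that switches off ERK, was the third to Trib1 (0.16). For scale, the root mean square of Sik1, Plk3 and Trib1 about their own means was 0.42, 0.43 and 0.46. Per1 differed between the times by 0.83 after saccharin and 0.60 after water. In the order of likeness to Sik1, Sik2 stood at place 135 and Plk2 at place 200, and Pim1 at place 13613. These are descriptions over 16 arrays of 4 groups, to which the difference between the times contributes most.

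**Figure D4:**
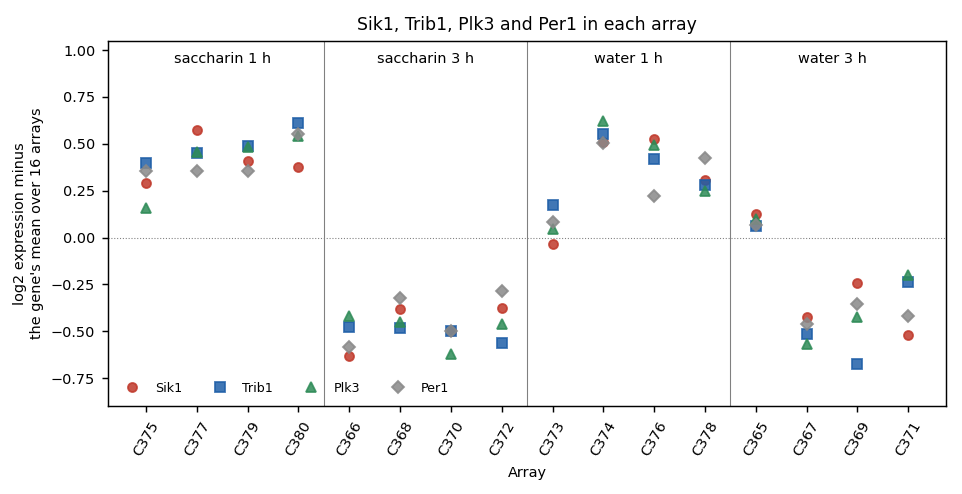
Sik1, Trib1, Plk3 and Per1 in each array. The vertical axis is log2 expression minus the gene's mean over 16 arrays, the horizontal axis lists the arrays by group, and each marker is 1 gene. In C365 all 4 genes lie above their means, apart from the other 3 water 3 h arrays, and in C373 they lie lower than in the other 3 water 1 h arrays.

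Some arrays were at the end of their group for several genes. C373 was the lowest of the water 1 h arrays for Sik1, Plk3, Trib1, Trib2 and Pim3. C375 was the lowest of the saccharin 1 h arrays for Sik1, Sik2, Plk3, Trib1 and Trib2. This did not hold for all members, since C373 was the highest water 1 h array for Trib3 and Pim1, and C375 the highest saccharin 1 h array for Plk2 and Pim3. In the saccharin 3 h group C372 was the highest for Sik1 and the lowest for Trib1, and C366 was the lowest for Sik1 and the highest for Trib1. Without C365, the log2 difference after water was 0.72 for Sik1, 0.75 for Plk3 and 0.83 for Trib1, the highest values over all arrays left out in turn. What sets these rats apart was not tested.

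Around the 9 genes stand 52 genes of the same families and pathways, of which 44 were measured. They are other family members, the LKB1 complex with the AMPK-related kinases, the substrates of the salt-inducible kinases, the synaptic substrates of Plk2, the partners of Tribbles proteins, and the inducers and substrates of Pim kinases. After saccharin 1 of the 44 passed the threshold with a higher level at 1 h and 0 with a lower one, and after water 0 passed either way (limma with Benjamini-Hochberg adjustment over all probe sets). At an unadjusted p under 0.05, the 1 h level was above the 3 h level for 2 and below it for 1 in the saccharin groups, where 4.56% and 3.43% of all probe sets were so. In the water groups it was above for 2 and below for 3, where the shares of all probe sets were 3.67% and 3.56%. The median log2 difference of the 44 was 0.01 after saccharin and -0.01 after water.

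The 1 gene that passed was Stk40, a pseudokinase related to the Tribbles proteins that also binds COP1. It read 7.61, 7.54, 7.53 and 7.62 at 1 h and 7.14, 7.10, 7.18 and 7.17 at 3 h after saccharin, with a gap of 0.35 between the groups. After water it read 7.33, 7.59, 7.45 and 7.49 at 1 h and 7.38, 7.24, 7.28 and 7.27 at 3 h, where 15 of the 16 pairs were higher at 1 h and C373 against C365 was again the exception. The log2 difference was 0.43 (SE 0.053, limma adjusted p = 4.43e-04) after saccharin and 0.17 (SE 0.053, adjusted p = 0.405) after water. The list that holds Stk40 was chosen with earlier results of these data known. These p-values are therefore a description and not an independent test. The interaction for Stk40 was 0.26 (SE 0.075, limma adjusted p = 1.00), so a dependence on taste did not pass the adjustment. Between Trib1, Trib2, Trib3 and Stk40, the larger differences after saccharin were thus those of Trib1 and Stk40.

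The transcripts coding for enzymes upstream and substrates downstream of these kinases did not pass the threshold between the times. Of the LKB1 complex and the AMPK-related kinases, 15 of 16 were measured and none passed the threshold, with log2 differences between -0.14 and 0.09 after saccharin and between -0.06 and 0.08 after water. The outermost of these was Prkaa2, a catalytic subunit of AMPK, at -0.14 (SE 0.062). Of the substrates of the salt-inducible kinases and their partner factors, 6 of 8 were measured and none passed, with differences of -0.07 to 0.06 after saccharin and -0.14 to 0.11 after water. Hdac4 and Hdac5, class IIa histone deacetylases that these kinases phosphorylate, differed by -0.07 and -0.06 after saccharin. After water they differed by -0.14 and -0.06. Sipa1l1, the substrate of Plk2 at the spine, differed by -0.01 after saccharin and -0.08 after water, and Rapgef2, another substrate, by -0.03 and -0.15.

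Of 9 partners of Tribbles proteins, 8 were measured and none passed, with Cebpb, coding for a C/EBP factor, at 0.08 after saccharin and 0.12 after water. Akt1, which Tribbles proteins can bind, was at 0.07 and 0.08. All 9 inducers and substrates of Pim kinases were measured and none passed. Stat5b, coding for a factor that induces Pim1, differed by -0.02 after saccharin and -0.11 after water, and Cdkn1b, coding for the cell cycle inhibitor p27, by 0.11 and 0.08. Among the other polo-like kinases, Plk1 was at 0.04 after saccharin and -0.22 after water, and Plk4 at -0.09 and 0.14, without passing the threshold.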

How the data were processed

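RNA of the gustatory cortex was hybridised to Affymetrix RaGene 1.1 ST arrays, 1 rat per array. The deposited table holds log2 expression values that the authors made by robust multi-array average (RMA: background correction, quantile normalization and summarization of probes), on 28826 probe sets. RMA makes the arrays' distributions alike, so a shift of all genes would not be seen, and levels of different probe sets were not compared. Arrays carry no read depth, and their number limits the precision.

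Probe sets were paired with genes through the platform annotation: 15209 had 1 gene, 306 several and 13311 no entry in it. The limma package (3.58.1, R 4.3.3) was used on these 15209, with 1 mean per group over all 16 arrays and Benjamini-Hochberg adjustment per comparison at 0.05. The fit was tested on simulated data. Per the paper, rats were moved from grouped home cages to single cages before the drinking schedule. Which of them came from the same home cage, or were handled on the same day, is not stated. The fit therefore holds no term for cage or day, and its p-values rest on the spread between these rats.

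The members and gene lists were chosen with earlier results of these data known. Of pathway lists, the named genes are any called in a comparison and the 2 with the smallest p per list; in the likeness of profiles, the 3 nearest. Alternatives, 8 settings and each of 16 arrays left out, stand in the closing section.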

Additional observations from a re-analysis of the deposited data

Results flagged for a closer look

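Of 36 groups of 4 arrays (9 genes in 4 groups), 2 held an array far from the other 3, by the Dixon criterion (the gap to the nearest array as a part of the group's range, at the 95% level). About 1 group in 20 would be picked out so by chance, or 1.8 of the 36. Both concern Trib2 at 3 h. After saccharin, C372 was the lowest at 6.71, the other 3 arrays lying between 6.98 and 6.99. After water, C365 was the highest at 7.21, the other 3 lying between 7.01 and 7.02. Both arrays enter the Trib2 interaction.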

How the results depend on the processing

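Single genes were followed for 20 results under 24 alternatives, 16 of them leaving out 1 array. These were time differences and interactions of Sik1, Sik2, Plk2, Plk3, Trib1 and Trib2. Of 470 values, 452 stayed on the same side of the threshold, 7 newly passed, 11 no longer passed and 0 reversed. Differences between the tastes were not among them, and those of Sik1 and Plk3 at 1 h changed sign without C373. The count of the 9 genes passing stayed within 3 to 4 after saccharin and 3 to 5 with the tastes averaged, and at 0 for each taste comparison and the interaction. After water it was 1 and became 0 with all probe sets of the file, 0 with the leptomeningeal mean as a covariate and 0 with only the 8 water arrays, and it ranged from 0 to 3 with arrays left out. Counts for the time comparison describe genes that were selected on it and support nothing, and the log2 difference of Trib1 after water stayed at 0.70 under these 3 settings. Over all probe sets, the number higher at 1 h was 42 after saccharin (22 to 60 over the settings), 15 after water (2 to 23) and 110 in the average (28 to 151), the lowest of the first and last with the covariate and that of water with only 8 arrays. The comparison of tastes at 3 h gave 1 probe set without C365 and 2 without C379, in place of 0, none of them among the 9 genes. A filter on a mean above 5 leaves out Trib3. RMA values have no background measure here, so the detection of Trib3 was not assessed. No paired analysis was possible because the groups share no replicate numbers.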
